A study of Mus musculus with 16 samples.

Results

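Transcripts of the Notch pathway were followed in dorsal skin of 15-day-old mice in which Gab1, a docking protein of receptor tyrosine kinases, was targeted in keratinocytes. Probes were taken by gene symbol alone, for members chosen with earlier results of these data known. The members comprised 10 of the 16593 genes named on the array. They were the receptors Notch1, Notch2 and Notch3, the ligands Jag1, Jag2 and Dll1, the receptor modifier Lfng, the nuclear mediator Rbpj and the targets Hes1 and Hey1. On the Illumina bead array 13 of the 25697 probes carry these symbols, with 3 for Rbpj, 2 for Notch2 and 1 for each other gene. Of these, 7 probes for 7 genes passed the filter on dim probes and were tested.

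RNA labelled as dorsal skin was hybridised to 16 single-colour arrays, 7 from mice labelled K14-cre; Gab1fl and 9 from mice whose genotype label reads only control. All mice were of the same mixed background (C57/BL6;129Ola). In K14-cre mice the keratin 14 promoter controls Cre, so that floxed genes are cut in basal keratinocytes and the cells that arise from them. The labels do not say whether the floxed allele was present in 1 or both copies, nor whether controls carried a floxed allele or Cre. The series' design text speaks of cells sorted for integrin alpha 6, while dorsal skin is the tissue given for the arrays. Dermal, endothelial and T cell transcripts were measured alongside those of keratinocytes, as given below.

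The arrays were not independent samples. Within each group they fell into near-identical sets, correlating at 0.9945 to 0.9963 within a set and less between sets. Pairs from different control sets correlated at 0.9609 to 0.9864, pairs from the 2 mutant sets at 0.9352 to 0.9364, and mutant with control arrays at 0.9335 to 0.9645 with a median of 0.9565. The mutant sets were thus less alike than most pairs of a mutant and a control array. Each set was counted as 1 sample, called a source here, which left 2 mutant sources (3 and 4 arrays) and 3 control sources (3 arrays each). Each source lay on both slides. The labels do not say whether a source is an animal or a pool, so the p-values measure the spread between these sources. Gab1 itself stood at 11.34 and 11.97 in the mutant sources and at 12.68 to 12.69 in the control sources on the log2 scale, a difference of -1.03 (limma adjusted p = 0.239). No source used here says where in Gab1 the deletion lies, so this probe is a limited check of the labels. For the Y-linked transcript Eif2s3y, the log2 level ranged from 9.14 to 10.74 except in mutant source 2, where it was 4.78. Between 13406 and 14636 probes were above background per array.

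Notch receptors are membrane proteins that are cut when a Delta or Jagged ligand on a neighbouring cell binds them. The released intracellular part enters the nucleus, joins the DNA-binding protein RBPJ and switches on target genes, of which the HES and HEY repressors are the best known. In the epidermis Notch signalling promotes the step from basal to spinous keratinocyte, and in the hair follicle it is needed for normal differentiation of the shaft and root sheath. In blood vessels Notch signals, with Dll4 and Notch4 among the endothelial components, guide sprouting and arterial fate.

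The letters that RBPJ recognises can be seen upstream of several targets. The core GTGGGAA, or TTCCCAC on the other strand, was searched on both strands in the RefSeq promoters of GRCm38.p6, each covering 250 bases before and 50 after a gene's start. It occurred in 6.38% of all 32851 promoters. Hes1 and Hey1 had no entry in the table used and were not searched. The other 8 members had one, and 1 of their 10 promoters held the core, that of Lfng. Among 7 other HES and HEY genes 4 had an entry and 3 of these held it, Hes5, Hey2 and Hes7. The windows printed here were chosen because they hold these letters in front of a member, Lfng, and of HES and HEY family genes, with the core in capitals. The Lfng window lies at chr5:140607182-140607288 on the plus strand, the Hes5 window at chr4:154960790-154960896 on the plus strand and the Hey2 window at chr10:30842934-30843033 on the minus strand. The cores in capitals begin 109, 83 and 207 bases before the start, and the Hes5 and Hey2 promoters each hold 2 cores, of which 1 is shown. A match is a description of letters and does not show binding.
Lfng: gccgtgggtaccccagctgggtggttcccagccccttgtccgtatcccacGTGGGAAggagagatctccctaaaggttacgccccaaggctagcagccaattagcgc
Hes5: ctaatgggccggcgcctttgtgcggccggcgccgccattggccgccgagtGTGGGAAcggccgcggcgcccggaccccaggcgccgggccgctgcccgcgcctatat
Hey2: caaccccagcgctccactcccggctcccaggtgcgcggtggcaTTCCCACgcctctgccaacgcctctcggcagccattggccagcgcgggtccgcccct

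Of the 7 tested members 1, the target Hey1, was lower in both mutant sources than in every control source, about the share of all tested probes given below. The receptor Notch3 and the ligand Dll1 differed little between groups, by -0.06 and 0.03. The receptor Notch1 differed by -0.27, with a 95% interval of -0.70 to 0.16 and overlapping sources. The median absolute difference of all tested probes was 0.23. The ligands Jag1 and Jag2 and the target Hes1 differed more between the 2 mutant sources than between mutant and control. No member passed the limma test over all probes at an adjusted p of 0.05 (0 of 7). Of all 14504 tested probes 8 passed, or 0.0552%, with 0.0207% higher and 0.0345% lower in the mutant. At an unadjusted p below 0.05 there was 1 of the 7 members, Hey1, against 12.1% of all tested probes. The mutant sources were both lower than every control source for 1 of the 7 members, against 14.0% of all tested probes, and above them for 0, against 15.8%. The median difference of the 7 was -0.06 on the log2 scale, beside 0.02 for all tested probes, so that as a group the members lay near the rest of the array.

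**Figure D1:**
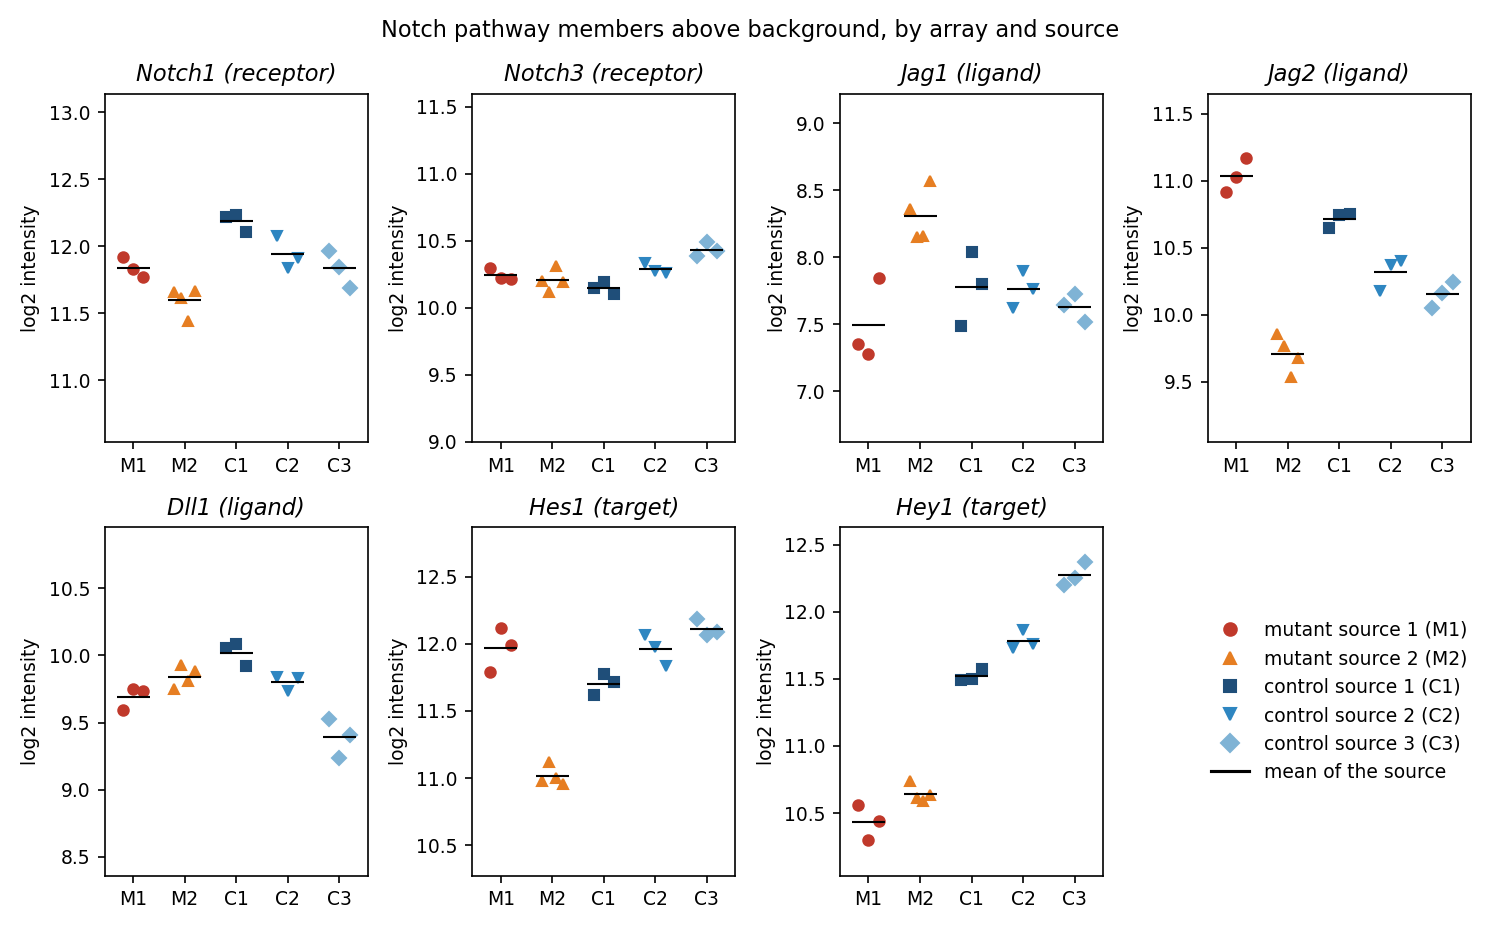
Each panel plots the log2 intensity (after background correction and quantile normalization) of 1 Notch member above background, by array (points) and source (M1 and M2 mutant, C1 to C3 control), with a line at the mean of the source. All panels have the same height on the log2 scale. For Hey1 the mutant arrays lie between 10.30 and 10.74 and the control arrays between 11.49 and 12.37, while in the other 6 panels the groups overlap.

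Of the receptors, Notch1 is the main Notch receptor of keratinocytes. Its log2 level was 11.84 and 11.60 in mutant sources 1 and 2, and 12.19, 11.94 and 11.83 in control sources 1 to 3. Single arrays ran from 11.44 over a median of 11.67 to 11.92 in the mutant and from 11.69 over 11.97 to 12.23 in the control. The groups overlapped, with mutant source 2 the lowest and control source 1 the highest. The difference was -0.27 (SE 0.17, 95% interval -0.70 to 0.16, limma adjusted p = 0.604).

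Notch3, a receptor also known from the smooth muscle of vessels, varied less than any other tested member. Its sources lay between 10.15 and 10.43, with 10.24 and 10.21 in the mutant, inside the range of the controls. The difference was -0.06 (SE 0.17, interval -0.48 to 0.35, limma adjusted p = 0.921). Markers of smooth muscle and pericytes gave a median difference of 0.07 over 8 genes, yet Acta2 and Tagln, which encode contractile proteins, were higher in both mutant sources, by 0.99 and 1.08 (limma adjusted p = 0.257 and 0.259). Their part in the Notch3 level was not tested.

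Notch2 could not be followed. Its first probe was above background on 0 of the 16 arrays, and the second on 2 of the 7 mutant arrays and 0 of the 9 control arrays. The level of the second probe was 5.33 and 5.92 in the mutant sources and 5.05, 5.12 and 5.44 in the control sources, so the groups overlapped. A probe that is not above background does not show that its transcript was absent.

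Among the ligands, Jag2 had the widest range. Its level was 11.04 in mutant source 1 and 9.71 in mutant source 2, above and below all control sources, which stood at 10.72, 10.32 and 10.15. The array values ran from 9.53 over a median of 9.85 to 11.17 in the mutant and from 10.05 over 10.37 to 10.75 in the control. The arrays of a source differed by an SD of 0.11 only. The mutant sources thus lay on opposite sides of the controls, and the difference between groups was -0.02 (SE 0.42, interval -1.08 to 1.03, limma adjusted p = 0.992).

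The order of the sources for Jag2, mutant 1, control 1, control 2, control 3, mutant 2, was the reverse of that of suprabasal keratinocyte markers. The mean log2 level of 6 suprabasal markers, such as Krt1, Lor and Sbsn, along that same order was 10.70, 10.87, 12.02, 12.55 and 13.01. Hair matrix and inner root sheath markers (7 genes) stood at 10.78, 10.94, 10.30, 9.41 and 8.83 in that order. Basal markers (7 genes) differed less, from 13.88 in mutant source 1 to 14.16 in mutant source 2. None of the genes of these lists passed the limma test between groups (smallest adjusted p = 0.421), and the part of these markers in the Jag2 level was not tested. In both lists the 2 mutant sources lay at or next to opposite ends of the 5 sources.

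**Figure D2:**
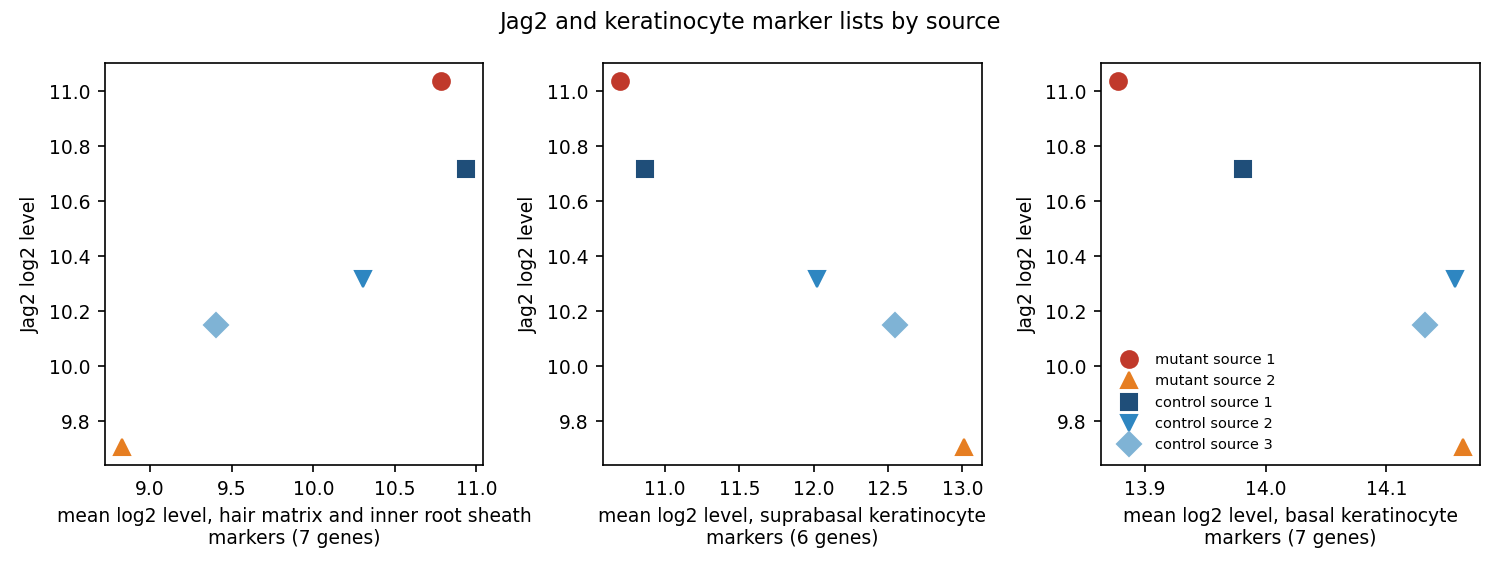
The log2 level of Jag2 (vertical axis) is plotted for the 5 sources against the mean log2 level of hair matrix and inner root sheath, suprabasal and basal keratinocyte markers (horizontal axes). Mutant source 1, with Jag2 at 11.04, and mutant source 2, with Jag2 at 9.71, lie at opposite ends in the suprabasal panel, with the 3 control sources between them.

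Jag1, the Jagged ligand that is itself induced by Notch in some tissues, was measured on every array. Its level was 7.49 and 8.31 in the mutant sources and 7.78, 7.76 and 7.63 in the control sources. The mutant arrays ran from 7.27 over a median of 8.15 to 8.57 and the control arrays from 7.49 over 7.73 to 8.04. Here too the mutant sources lay on both sides of the controls, in the order opposite to that of Jag2. The difference was 0.18 (SE 0.29, interval -0.54 to 0.89, limma adjusted p = 0.862), and the arrays of a source varied by an SD of 0.22.

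Dll1, a Delta ligand of basal keratinocytes, stood at 9.69 and 9.84 in the mutant and at 10.02, 9.80 and 9.39 in the control. Both mutant sources lay inside the range of the controls. The difference was 0.03 (SE 0.24, interval -0.56 to 0.62, limma adjusted p = 0.980).

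The modifier and the nuclear mediator gave no measurable signal. Lfng encodes a glycosyltransferase that changes which ligands a Notch receptor answers to. Its probe was above background on 0 mutant and 2 control arrays, at 5.56 and 5.28 in the mutant sources and 5.53, 5.51 and 5.29 in the control sources. The 3 probes for Rbpj were above background on 0 of the 16 arrays, with array values between 4.70 and 5.74. No fold change is given for either gene, and their transcripts may be present below the reach of these probes.

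The targets behaved differently from each other. Hes1, a repressor that Notch induces in spinous keratinocytes, was at 11.97 in mutant source 1 and 11.02 in mutant source 2, against 11.70, 11.96 and 12.11 in the controls. Array values ran from 10.96 over a median of 11.12 to 12.12 in the mutant and from 11.62 over 11.98 to 12.18 in the control. Mutant source 2 lay below every control source, and mutant source 1 lay among them. The difference was -0.44 (SE 0.31, interval -1.21 to 0.34, limma adjusted p = 0.649), and without mutant source 2 it was 0.04.

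Hey1, a HEY family repressor known from endothelium and from the dermal papilla of the hair follicle, was at 10.43 and 10.65 in the mutant sources. In the control sources it was at 11.52, 11.79 and 12.28. The mutant arrays ran from 10.30 over a median of 10.59 to 10.74, and the control arrays from 11.49 over 11.76 to 12.37. The groups did not overlap, and every mutant array lay below every control array.

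Averaged over sources, Hey1 stood at 10.54 ± 0.15 (SD, n = 2) in the mutant and at 11.86 ± 0.38 (SD, n = 3) in the control, a mutant level equal to 40.0% of the control's. The difference of -1.32 (SE 0.25) had an interval of -1.95 to -0.69, an unadjusted limma p of 0.00252 and an adjusted p of 0.237, which ranked it at position 154 among the 14504 probes. Permuting the labels of the 5 sources exactly (two-sided) returned p = 0.1, which no split of the 10 possible can undercut. The difference was -1.26 on slide 1 and -1.37 on slide 2, and between -1.12 and -1.49 when any 1 source was left out. With the source as a random block, a limma fit to the 16 arrays gave a Hey1 adjusted p of 9.56e-05. A limma fit to averages by source and slide, with both as blocks, gave an adjusted p of 0.00612. Both fits take more residual freedom than 5 sources hold.

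**Figure D3:**
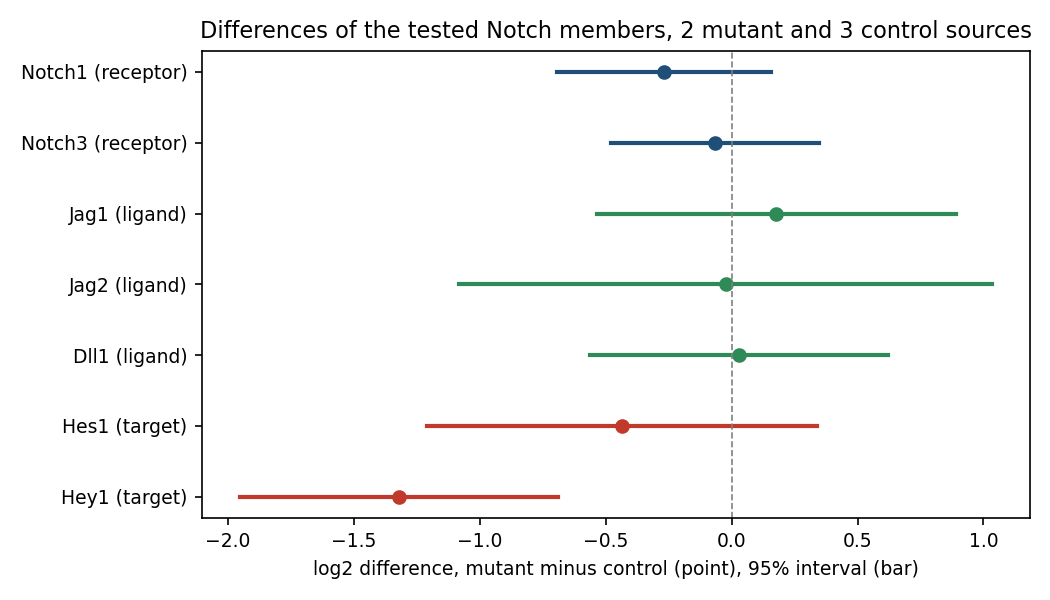
Points give the log2 difference, mutant minus control, of the 7 tested members, and bars the 95% interval of the limma fit to 2 mutant and 3 control sources. Hey1, at -1.32, is the member whose interval leaves out 0, before any adjustment for the number of probes, and the intervals of the other 6 include it.

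The wider pathway was read from 6 lists of other Notch components and epidermal genes downstream of Notch, with 59 of 69 genes on the array and 48 tested. No gene passed the limma test over all probes (0 of 48). At an unadjusted p below 0.05 there were 3 of 48, against 12.2% of all genes tested. In 10 of the 48 the mutant sources were both below every control, and in 1 both above, against 15.3% and 14.1% of all 10013 genes tested. Their median difference was -0.19, beside 0.00 for all genes. Some of the 48, Dll4 and Ascl2 of the 10 among them, were detected in only part of the mutant arrays, so these counts and the median are descriptions.

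The list of other receptors, ligands and their modifiers held the genes with an unadjusted p below 0.05, namely Notch4, Mfng and Dll4. Notch4, a Notch receptor of endothelium, was at 9.11 and 8.65 in the mutant sources and at 10.38, 10.50 and 11.35 in the controls. It differed by -1.86 (SE 0.35, limma adjusted p = 0.236), while its other probe, detected in 1 of 7 mutant arrays, gave -0.54. Dll4, a ligand of sprouting and arterial endothelium, was at 5.84 and 5.63 in the mutant and at 6.37, 6.69 and 7.69 in the control, a difference of -1.18 (SE 0.41, limma adjusted p = 0.368). Mfng, a glycosyltransferase of the same family as Lfng, differed by -1.13 (SE 0.39, limma adjusted p = 0.358) while its other probe, detected in 1 of 7 mutant and all 9 control arrays, gave -0.62. Dll4 and the second probes of Notch4 and Mfng were tested because of their level in the controls, so these values support nothing.

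For Notch4 and Mfng each mutant source was below each control source, and the controls ranked in the order of Hey1, source 3 highest and source 1 lowest. Of the 7 mutant arrays 3 had Dll4 above background. Without background correction it differed by -0.51 and Mfng by -0.68, and without control source 3 they differed by -0.79 and -0.77.

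Endothelial markers had lower means in the mutant, as Hey1, Notch4 and Mfng did, and none passed the test. Of 10 markers 9 were on the array and 8 tested, of which 8 were lower in the mutant mean and 6 lower in both mutant sources, where 15.3% of all genes were so. Their median difference was -0.87, and the smallest limma adjusted p was 0.315. Their mean log2 level was 10.85 and 10.93 in the mutant sources and 11.36, 11.68 and 12.35 in control sources 1 to 3, the same order of controls as for Hey1. Suprabasal keratinocyte markers, Notch3 and Hes1 had this order of controls too, and 3 control sources allow few orders. Their summed intensity ran from 20460 to 24540 over the mutant arrays and from 31050 to 60480 over the control arrays. Pecam1 and Esam, which encode junction proteins of endothelium, differed by -1.03 and -1.18, and each tested marker was above background on all 16 arrays. In RNA from a mixture of cells, fewer cells of a type and less RNA per cell cannot be told apart, and the part of endothelial RNA in the Hey1, Notch4, Dll4 and Mfng values was not tested.

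**Figure D4:**
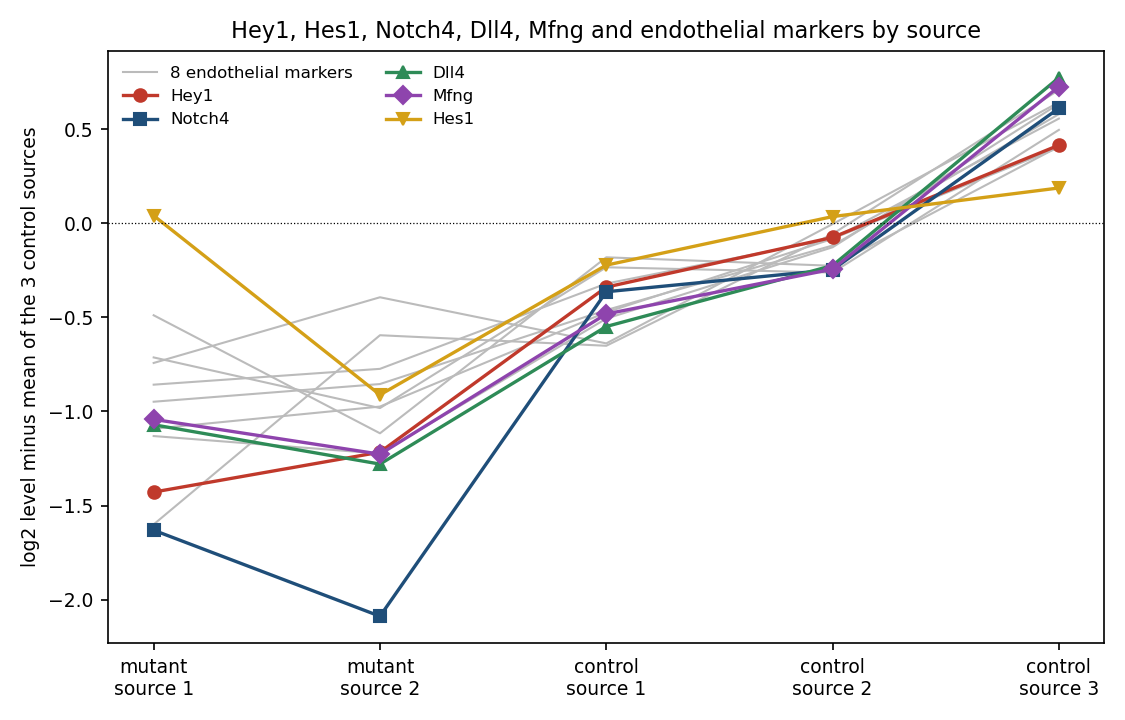
The log2 level of each gene, less its mean over the 3 control sources (vertical axis), is shown for the 5 sources, with the 8 tested endothelial markers as grey lines. Hey1, Notch4, Dll4 and Mfng lie below all control sources in both mutant sources and are highest in control source 3, whereas Hes1 is low in mutant source 2 alone. Dll4 was tested because of its level in the controls, so its line supports nothing.

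Markers of other cell types in the RNA are given beside Hey1 and Notch1, and no gene of these lists passed the limma test (smallest adjusted p = 0.238 for dermal papilla, 0.259 for T cell, 0.239 for melanocyte, 0.322 for fibroblast and 0.270 for hair shaft markers). Of 10 dermal papilla markers 7 were tested, 6 with a lower mean in the mutant and 1, Prdm1, with a mean higher by 0.62. Among them Igfbp4 and Alpl were below every control source in both mutant sources, 2 of 7 where 15.3% of all genes did so. The summed intensity of the list ran from 7160 to 11470 in the mutant and from 15420 to 25090 in the control. Igfbp4 weighed most in this sum, with a log2 level of 12.97 and 12.64 in the mutant sources and 13.48 to 13.63 in the control sources. The mean log2 level of the list was 10.34 in control source 1, 9.74 in control source 2 and 8.88 in control source 3. This order of the controls was opposite to that of Hey1.

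T cell markers had a summed intensity of 10680 to 13710 in the mutant and 14320 to 24970 in the control. Thy1 made up most of these sums. Its log2 level was 13.57 and 13.40 in the mutant sources and 14.15, 13.74 and 13.66 in the control sources, the highest of the list. Of the 6 tested, Cd3g and Thy1 were detected on all 16 arrays, with differences of -2.79 and -0.36 (limma adjusted p = 0.288 and 0.501). Nkg7, Ctsw, Cd3d and Cd3e were detected in 3 to 6 of the 7 mutant arrays and in all 9 control arrays, so that they were tested because of their level in the controls, and no difference is given for them. Among the control sources, the mean level of the list was highest in source 1 and lowest in source 3, as was Notch1.

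Melanocyte markers had a summed intensity of 2379 to 9223 in the mutant and 4912 to 14990 in the control, with the same order of the control sources by mean level. Hair shaft markers had a summed intensity of 521.7 to 2332 in the mutant and 2299 to 8225 in the control. For fibroblast markers the ranges were 27010 to 48040 and 35700 to 41030. The ranges of summed intensity overlapped for all 3 of these lists. By mean log2 level, hair shaft markers (5 genes) were at 7.145 and 6.615 in the mutant sources and 9.066, 7.951 and 8.735 in the control sources. All 5 had a lower mean in the mutant. Of these, Krt31, Krt34 and Krt86 were detected in only part of the mutant arrays, so these levels are descriptions. Fibroblast markers (7 genes) were at 11.22 and 10.72 against 11.47, 11.51 and 11.35, with 5 genes lower and 2 higher. The part of any of these cell types in the Hey1 and Notch1 values was not tested.

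The proteases that cut the receptor gave small differences. Of 9 genes 7 were tested, with differences from -0.34 to 0.01. Ncstn, Psenen and Psen2, all subunits of gamma-secretase, differed by -0.33, -0.14 and -0.34 (limma adjusted p = 0.570, 0.707 and 0.708). Among 9 tested partners of RBPJ the lowest value was that of the coactivator Maml3, at 6.77 and 6.90 in the mutant against 7.81, 7.29 and 7.17, a difference of -0.59 (limma adjusted p = 0.439). The corepressor Cir1 and the acetyltransferase Ep300 differed by -0.36 and -0.22.

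Of 10 tested inhibitors and turnover genes 1, the ubiquitin ligase gene Dtx1, was lower in both mutant sources, by -0.42 (limma adjusted p = 0.532). Numb, an inhibitor of Notch, differed by 0.38 and Dtx4 by -0.42, with overlapping sources. Of the 7 other HES and HEY genes 2 were tested. Hey2, whose upstream sequence is printed above, was detected in 3 mutant and all 9 control arrays. It was tested because of its level in the controls, so its difference of -0.51 (limma adjusted p = 0.728) supports nothing. The other Hey2 probe, detected in 3 mutant and 6 control arrays, gave -0.29. Hes6 stood at 10.17 and 8.73 in the mutant sources and at 10.04, 9.49 and 9.48 in the controls. It thus had the mutant sources on opposite sides of the controls, as Jag2 did. The difference of this Hes6 probe was -0.22, while other Hes6 probes gave 0.11 and 0.22.

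Among epidermal genes downstream of Notch none passed the test. Of 10 tested, 8 had a lower and 2 a higher mean in the mutant, and 1, the transcription factor Ascl2, was lower in both mutant sources, by -0.65 (limma adjusted p = 0.456). Ascl2 was detected in 4 of 7 mutant arrays and all 9 control arrays. It was tested because of its level in the controls, so its difference supports nothing. That difference was -0.26 without background correction and also -0.26 without mutant source 1. Ivl, which encodes involucrin of the cornified envelope, was at 8.11 in mutant source 1 and 11.69 in mutant source 2, around controls of 10.54 to 11.24. Krt10, the keratin of spinous cells, was at 15.13 and 16.02, around controls of 15.53 to 15.94. The spread between the mutant sources was larger than the difference between groups for both genes.

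The genes whose levels followed a member most closely were taken by Pearson correlation over the 16 arrays, which hold 5 sources, so that high values arise readily among 10013 genes. Hey1 was most like Tmod4, a tropomodulin of skeletal muscle (r = 0.992), and Mmrn2, an extracellular protein of endothelium (r = 0.988). Hes1 was most like P2ry6, a nucleotide receptor (r = 0.976), and Dele1, a mitochondrial stress protein (r = 0.972). Jag2 was most like Spg7, a mitochondrial protease (r = 0.974), and Zmat5 (r = 0.973). For Notch1 they were Hsd17b2, a steroid dehydrogenase, and Fosb, an AP-1 factor (r = 0.936 and 0.933). For Notch3, Jag1 and Dll1 the closest genes reached 0.905, 0.906 and 0.911, and were St8sia4, Pawr and 1700102P08Rik. The second closest were C1qtnf3, Strn3 and Fbxo2. No other Notch member was among the 2 closest genes of any member.

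**Figure D5:**
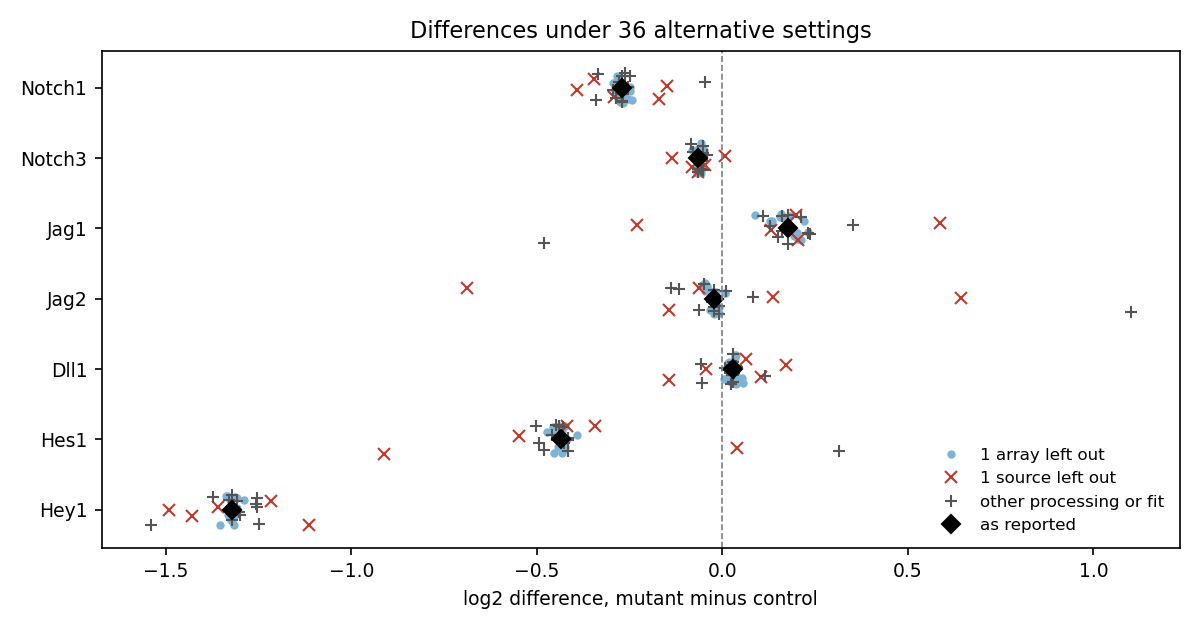
Each mark gives the log2 difference, mutant minus control, of a tested member under 1 of 36 alternative settings, with the reported value as a black diamond. Hey1 stays between -1.54 and -1.12 throughout, whereas Notch3, Jag1, Jag2, Dll1 and Hes1 have values on both sides of 0.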

How the data were processed

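The deposited table of raw values holds, per the file headers, an average intensity and a detection p-value for every probe and array. The submitters' processing notes name GenomeStudio. Normalized intensity from the authors is deposited in a second table, which differed from the quantile-normalized raw signal by a median of 0.00648%. No source used here names a genome build for the array.

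Raw values went through neqc of limma 3.58.1 in R 4.3.3, with offset 16, quantile normalization and log2. A probe was tested where its detection p was under 0.05 in 7 or more arrays, which held for 14504. Median raw intensity per array was 175.9 to 223.5. Precision is limited by how few sources there are. Symbols came from the platform annotation (23978 probes with 1 symbol, 0 with several, 1719 with none). Outside the members they were updated through RefSeq gene identifiers.

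Arrays of a labelled group correlating above 0.99 were averaged into 5 sources, and limma (lmFit, then eBayes allowing a trend with intensity; residual degrees of freedom 3, prior 2.53) compared 2 mutant with 3 control sources, with Benjamini-Hochberg adjustment over all probes. For lists, 1 probe per gene (highest mean) was used. All member probes are described, of each pathway list up to 3 genes with the smallest p are named, and of each member the 2 most correlated genes. Marker genes and remaining list members were named as examples after their values were seen. The fit was tested on simulated data.

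Arrays with the same title number deviated together with correlations of -0.386 to 0.418 over 7 numbers, so the numbers do not pair the arrays. The members, lists and threshold were chosen with earlier results of these data known.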

Additional observations from a re-analysis of the deposited data

Results flagged for a closer look

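Among the 13 member probes, 1 array value stood far from the others of its group. The first Rbpj probe read 5.56 on mutant array 6, where the next highest mutant array read 5.29. This probe was above background on 0 of the 16 arrays. Of 26 groups of arrays examined in this way 1 gave such a value. For independent arrays, chance alone gives such a value in a share of about 0.05 of groups. The arrays of a source are not independent, so that share need not hold here.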

How the results depend on the processing

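The count of 8 probes past the threshold depended on the setting. It was 0 on either slide alone, for probes detected on all 16 arrays, when the authors' table was used, when arrays were scaled to the 75th percentile, when the offset was 50 or background was not corrected, and when the Y-linked level was added as a covariate. In these settings 1453 to 3971 probes had an unadjusted limma p below 0.05. It was 1 with cyclic loess and 4 without a filter on dim probes. It was 4914 with 16 separate arrays, 3395 with the title number as a replicate block and 883 where source was a random block. For averages by source and slide, with both as blocks, it was 331. These 4 fits take more residual freedom than 5 sources hold. Leaving out 1 array or 1 source gave 0 to 8, with 0 without control array 2, 4 or 6 and without any 1 source, where 748 to 3798 probes had an unadjusted limma p below 0.05. With mutant source 1 or 2 left out, the lone mutant source is assumed to vary like the controls.

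Hey1 kept its direction in all 36 settings (-1.54 to -1.12). It passed the limma threshold in the 4 fits with excess residual freedom named above, with an adjusted p of 0.000838 with the title number as a replicate block. That block also took Notch1 past it (-0.34, adjusted p = 0.0161), as the 16 separate arrays did (-0.29, adjusted p = 0.0166), where Hes1 passed as well (-0.50, adjusted p = 0.0340). In the other settings no member passed, and Notch1 was -0.0469 (adjusted p = 0.904) with the Y-linked covariate and -0.39 to -0.15 without 1 source. Of the named pathway genes Notch4 passed in all 4 of those fits, Mfng, Dll4, Maml3, Cir1 and Dtx1 in 2, and Ncstn, Psenen and Ascl2 in 1.

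Some differences changed sign. Given the Y-linked covariate, Jag1 was -0.48, Jag2 1.10, Dll1 -0.0561, Hes1 0.31, Psen2 0.32, Numb -0.23, Hey2 0.43 and Hes6 1.00. The Y-linked level was low in mutant source 2 alone (4.78, against 9.14 to 10.74), so this covariate largely sets that source apart. On slide 1 Jag2 was 0.0829 and Dll1 -0.0572, and with the slide and source blocks Jag2 was 0.0103. With 1 source left out Notch3 ran from -0.14 to 0.0071, Jag1 from -0.23 to 0.59, Jag2 from -0.69 to 0.64, Dll1 from -0.14 to 0.17, Hes1 from -0.91 to 0.04, Psen2 from -0.73 to 0.0459, Hey2 from -1.05 to 0.0198, Hes6 from -0.94 to 0.50, Ivl from -2.87 to 0.72 and Krt10 from -0.68 to 0.21. With 1 array left out Jag2 ran from -0.0558 to 0.0076. The cause was not tested, beyond the spread between the 2 mutant sources given above. Levels of Notch2, Lfng and Rbpj are limited by signal over background.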
